A study of Mus musculus with 15 samples.

Results

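The genes described here encode ion channels and ion pumps: potassium, calcium, sodium and chloride channels, transient receptor potential (Trp) channels, calcium pumps and sodium pumps, with their accessory subunits and close relatives. They were chosen by gene name, from the genes listed in the wild-type or E-OEX tables. The naming rule used no measured value beyond that listing, but it was set with earlier results of these data known. The rule found 110 genes among the 8384 genes listed in those tables, all of them protein-coding in GENCODE M21. Of the 110, 88 were listed in the wild-type tables, 73 in the E-OEX tables and 51 in both. The U-OEx tables listed 104 of them, and 46 genes were in all tables. Another 77 genes of these families were listed in the U-OEx tables alone and were not analysed here.

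RNA was sequenced from mouse uterine epithelium on day 4. The luminal epithelium (LE) lines the uterine cavity, and the glandular epithelium (GE) forms the glands beneath it. Wild-type mice gave 3 LE and 3 GE libraries. The genotype of the other animals is given as overexpression of Notch1, a receptor for cell-contact signals, and their sample titles separate them into E-OEX (3 LE and 3 GE libraries) and U-OEx (3 LE libraries), names that are used here as given. The driver of the overexpression, what separates E-OEX from U-OEx, the age and strain of the mice, the event from which the days were counted, and the number of animals behind a library are not given in the sources used here. No source says that the 3 libraries of a group came from separate animals, so p-values measure the spread between libraries only.

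As background, an epithelium moves salt and water by combining pumps and channels on its 2 faces. The sodium pump exports sodium and imports potassium, potassium channels return the potassium, and chloride channels on the luminal face release fluid. Calcium enters through channels of the plasma membrane and is cleared by pumps that push it out of the cell, into the endoplasmic reticulum (Atp2a genes) or into the secretory pathway (Atp2c genes), from which release channels (Itpr and Ryr genes) let it out again. In the uterus these proteins help set the volume and ion content of the fluid around the embryo, and in smooth muscle the same families set contraction.

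Each value is a scaled read count, that is, the number of reads of a gene divided by 1 factor for the library. Listed genes held between 3818041 and 4797424 reads in a wild-type library, between 1980800 and 3494859 in an E-OEX library and between 13541644 and 14981505 in a U-OEx library, and the first 2 ranges cover selected gene lists. Notch1 was listed in the U-OEx tables only, at 2913, 3524 and 2789, so the labels were not checked on it. Several kinds of marker moved with the groups. Summed over the markers listed in all tables, 8 smooth muscle markers lay between 3124 and 5441 in wild-type GE and between 15634 and 19938 in E-OEX GE, against at most 680.3 in any LE library; 5 pericyte markers between 2466 and 7613 in GE against at most 130.1 in LE; 6 endothelial markers between 2419.9 and 8773 in GE against at most 335 in LE; and 5 stromal markers between 33624 and 99158 in GE against at most 7612 in LE, the highest LE value being wild-type LE replicate 2. The 5 glandular markers fell in ranges of 45.6 to 84.0 in wild-type LE, 111 to 1009.6 in E-OEX LE with replicate 1 highest, 1011 to 1388 in U-OEx LE, 4392 to 5412 in E-OEX GE and 21022 to 28652 in wild-type GE. Of these, Foxa2 and Cxcl15 were higher in both mutant LE groups than in wild-type LE, and Lif in U-OEx LE. Spink1, at 1.04 to 17.4 in wild-type LE, was 0 in every mutant LE library. Ttr was at most 2.05 in wild-type LE, at most 3.24 in E-OEX LE and 0 in U-OEx LE. The 4 luminal markers summed to between 16958 and 19083 in LE of wild type, 9659.8 and 15117 for E-OEX LE and 5189 and 7699 for U-OEx LE, and reached 1733 in E-OEX GE replicate 1 against 593 and 572 in the other two. The 2 ciliated-cell markers ranged from 231 to 396 in wild-type LE, 27.2 to 318 in E-OEX LE and 2.88 to 40 in U-OEx LE. Dnah5 made up most of the wild-type LE sum (225 to 374) and lay between 0 and 16 in U-OEx LE. Foxj1 overlapped between these groups, at 6.14 to 21.8 in wild-type LE and 2.88 to 24 in U-OEx LE. Defining epithelial markers were present in every library (Cdh1 and Krt19 together at least 9353), so the labelled tissue carried its markers. Their sum was lower in GE, at 9353 to 10336 in wild type and 14008 to 17700 in E-OEX. In LE it ranged from 33517 to 45617 in wild type, 33458 to 51892 in E-OEX and 22536 to 34138 in U-OEx. In bulk samples fewer cells of a type and less RNA per cell cannot be told apart.

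Per kilobase of exon, Atp1b1, the beta subunit of the sodium pump, was at 6611 ± 2019.5 scaled reads per kilobase in wild-type LE (SD, n = 3). The tandem-pore potassium channel Kcnk1 (1875 ± 349.9) and the inositol trisphosphate receptor Itpr2 (1415 ± 60.9) had lower levels there, and the ranges of mean ± SD of these 3 genes did not overlap. In wild-type GE the levels per kilobase were 1226 ± 89.9 for Atp1b1, 1109 ± 91.3 for the chloride channel Clcn2 and 950.4 ± 38.6 for the endosomal chloride-proton exchanger Clcn5, where the ranges of mean ± SD of Atp1b1 and Clcn2 overlapped. In U-OEx LE the calcium entry channel Trpv6 (2049 ± 462) and the potassium channel subunit Kcne3 (1601 ± 53.8) stood above Atp1b1 (649.5 ± 167), and the ranges of mean ± SD of Trpv6 and Kcne3 overlapped. Atp1b1 and Trpv6 were not listed in the E-OEX tables. There the highest level per kilobase in LE was that of Clca1 (2026 ± 809), and in GE that of the calcium pump Atp2a3 (511 ± 66).

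Between the epithelia, most of these genes had their higher mean in GE. The wild-type and E-OEX tables list only genes whose LE and GE means differ by about 2-fold or more, so this direction is a description and was not tested. For wild type, 62 of 88 genes (70.5%) had the higher mean in GE, against 57 percent of all 6414 listed genes. For E-OEX it was 58 of 73 (79.5%), against 63.9 percent of all 4903. All 8 sodium channel genes listed in each set of tables were higher in GE. Among the widest wild-type ratios were those of the ryanodine receptor Ryr3, which went from 3.11, 18.4 and 10.1 in LE to 6151, 5689 and 6585 in GE, of the calcium-activated potassium channel Kcnma1, from 2.07, 0 and 3.35 to 828, 836 and 879, and of the tandem-pore potassium channel Kcnk3, with 0 in each LE library and 39.9, 25.6 and 61.4 in GE. Scn3b, a beta subunit of sodium channels, was at 27.3, 20.9 and 59.7 in GE against 0, 1.02 and 0 in LE. Among the widest in E-OEX were Kcnk3, Scn7a and Kcnd2, all at 0 in the 3 LE libraries, and Scn4b, likewise 0 in LE and 19, 46 and 45 in GE. Many of these genes are known from muscle, nerve and heart, and the smooth muscle, pericyte, endothelial and stromal marker sums were also higher in every GE library than in any LE library; their part in these ratios was not tested.

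A smaller number were luminal. The secretory pathway calcium pump Atp2c2 was at 2265, 1791 and 1662 in wild-type LE and at 36, 10.4 and 24.2 in wild-type GE. The magnesium-permeable channel Trpm6 had 213, 1814 and 406 in LE and 48.7, 22.7 and 26 in GE, with replicate 2 far above the other LE libraries. The sum of 3 mesothelial markers ordered the libraries as Trpm6 did in wild-type LE (109.8, 3274 and 1023) and in E-OEX LE (719, 559 and 234). In U-OEx LE (95.6, 143 and 877) its order differed from that of Trpm6, and its part was not tested. The voltage-gated potassium channel gene Kcnh3 and the cation channel gene Trpm1 were also among the 5 genes with the strongest luminal ratio in wild type. Kcnh3 was at 243, 81.9 and 71.5 in LE and 8.76, 19.9 and 5.19 in GE, and Trpm1 at 46.6, 26.6 and 35.8 and 0, 4.74 and 2.60. In E-OEX the 5 were Clca3a2, Clca1, the inward rectifier Kcnj11, Trpm1 and the potassium channel Kcnc2. Kcnj11 rested on LE replicate 1 (its LE values were 222, 19.98 and 7.56). Of the 51 genes in both sets of tables, 50 had their higher mean on the same side in both genotypes, as did 2827 of all 2933 shared genes, and the exception was Clca3a2.

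**Figure D1:**
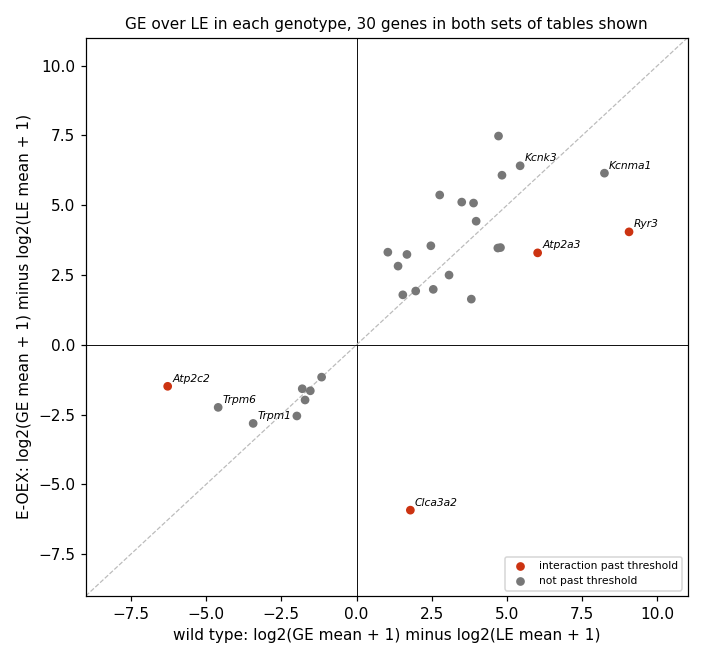
Each point is a channel or pump gene listed in both sets of tables (30 of the 51, those named in the text); the axes give the log2 difference between the GE and LE group means (value + 1) in wild type (x) and in E-OEX (y), and the dashed line marks equal differences. Only Clca3a2 lies in a quadrant of opposite signs, and the 4 red points are genes whose genotype effect differed between GE and LE past an adjusted p of 0.05.

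Comparisons between genotypes were run over all shared genes, and the share of channel and pump genes that passed an adjusted p of 0.05 was near the share over all genes tested in each. In E-OEX LE against wild-type LE, 3 of 40 tested genes changed (1 higher, 2 lower), 7.5%, where the background over all 2600 genes was 10.7 percent (5.12 percent higher and 5.54 percent lower). Their median log2 fold change was -0.32, against -0.09 for all genes, and the split became 1 higher and 0 lower on the deposited scale, which reads 0.17 (log2) above the rescaled one, and 3 and 2 under quantile normalization. In E-OEX GE against wild-type GE, 10 of 51 changed (4 higher, 6 lower), 19.6% against a background of 23.5 percent of 2851 (9.72 percent higher, 13.8 percent lower), with medians of 0.26 and 0.05. On the deposited scale, which reads 0.46 (log2) higher, 20 passed, 15 of them higher and 5 lower, so the balance of directions in GE depends on the scale; over all genes the share of calls that were higher went from 41.3% to 71.6%. The largest share of calls was in U-OEx LE against wild-type LE, where 40 of 75 changed (22 higher, 18 lower), 53.3% against a background of 56.9 percent of 5949 (29.1 percent higher, 27.8 percent lower), with medians of -0.23 and 0.09. In U-OEx LE against E-OEX LE, 10 of 59 changed (4 higher, 6 lower), 16.9% against a background of 15 percent of 4275 (6.97 percent higher, 8.05 percent lower). The genotype effect of E-OEX differed between GE and LE, as an interaction, for 5 of 51 genes (2 with the higher effect in GE, 3 with the lower), 9.8% against a background of 10.7 percent of 2933 (5.83 percent higher, 4.91 percent lower). All 2933 genes were listed with a GE to LE difference in both genotypes. Genes without that difference in either genotype could not enter, and the interaction p-values do not allow for this selection. The 2 comparisons of E-OEX and U-OEx with wild-type LE share the wild-type libraries, and their values are set side by side without a test of their likeness.

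Atp2a3 and Atp2c2, both calcium pumps, had E-OEX effects of opposite sign in LE and GE. Atp2a3 (ENSMUSG00000020788, chr11:72961169-72993044, GRCm38), a pump of the endoplasmic reticulum, had scaled counts of 59, 56.3 and 44.7 in wild-type LE libraries, 387, 206 and 229.9 in E-OEX LE and 176, 79.1 and 129 in U-OEx LE. Each mutant LE library lay above each wild-type LE library. The glandular marker sum was likewise higher in each mutant LE library than in wild-type LE, and among E-OEX LE libraries replicate 1 was highest for both. In mutant LE that sum was almost all Foxa2, Cxcl15 and Lif, while the gland marker Spink1 was 0 in every mutant LE library. The part of gland-like RNA in the rise of Atp2a3 was not tested. In GE the values were far higher in both genotypes, at 2879, 3554 and 4136 in wild type and 2305, 2974 and 2809.5 in E-OEX, and the groups overlapped on this scale. Atp2a3 rose in E-OEX LE with a log2 fold change of 2.12 (SE 0.48, adjusted p = 0.0222) and in U-OEx LE with 1.16 (SE 0.41, adjusted p = 0.039), and it fell in E-OEX GE with -0.84 (SE 0.23, adjusted p = 0.024). The difference of the E-OEX effect between GE and LE was -2.67 (SE 0.45, adjusted p = 0.00276). The fall in GE did not pass on the deposited scale, at -0.38 (adjusted p = 0.231), and the rise in U-OEx LE did not pass under quantile normalization, at 0.66 (adjusted p = 0.18).

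Atp2c2 (ENSMUSG00000034112, chr8:119700009-119757717), the pump that loads calcium and manganese into the secretory pathway, went the other way. Its counts in E-OEX LE were 467, 309 and 1182, below every wild-type LE library, and in U-OEx LE they were 159, 227 and 159, lower still than in E-OEX LE. In GE it rose from the wild-type values of 36, 10.4 and 24.2 to 325, 176 and 194 in E-OEX, with no overlap. The luminal marker sum was also higher in each E-OEX GE library (1733, 593 and 572, replicate 1 being highest for both) than in wild-type GE (between 215 and 339), and its part was not tested. The log2 fold changes were -1.94 (SE 0.53, adjusted p = 0.0463) in E-OEX LE, 2.90 (SE 0.50, adjusted p = 0.00285) in E-OEX GE and -3.41 (SE 0.28, adjusted p = 3.75e-05) in U-OEx LE, and U-OEx LE fell below E-OEX LE by -1.76 (adjusted p = 0.0477). The interaction was 5.11 (SE 0.75, adjusted p = 0.00152), the strongest of the set by adjusted p. The call in E-OEX LE ended on the deposited scale, at -1.77 (adjusted p = 0.0662), and with edgeR, at -1.73 (adjusted p = 0.0856), and for 5 of the 6 libraries when each was left out. The call between U-OEx and E-OEX LE ended for all 6, and in 4 other settings, among them the deposited scale (adjusted p = 0.0654) and the replicate block (adjusted p = 0.0596). In LE the luminal marker sum of E-OEX LE was also below that of wild-type LE, and its part was not tested.

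Release channels of the endoplasmic reticulum fell in GE of E-OEX (Ryr3) and in LE of U-OEx (Itpr2 and Ryr2). Ryr3 (chr2:112631355-113217096), a ryanodine receptor of the endoplasmic reticulum, dropped in GE from 6151, 5689 and 6585 in wild type to 538, 2696 and 2418 in E-OEX, with a fitted change (log2) of -2.48 (SE 0.49, adjusted p = 0.00556). In LE its values were 3.11, 18.4 and 10.1 in wild type, 27.4, 15.4 and 297 in E-OEX and 3.68, 10.7 and 3.84 in U-OEx, where E-OEX replicate 3 stood apart. E-OEX GE replicate 1, the library with the highest luminal marker sum in GE, was the lowest for Ryr3. The interaction for Ryr3 was -4.44 (SE 1.33, adjusted p = 0.0486); leaving out 1 library ended this call for 9 of the 12 libraries, the adjusted p reaching 0.112. Itpr2 (chr6:146108299-146502223), a receptor that releases calcium on inositol trisphosphate, was among the most abundant of these transcripts in wild-type LE (20985, 20029.6 and 21832) and reached only 1513, 948 and 1096 in U-OEx LE. Its log2 fold change of -4.19 (SE 0.24, adjusted p = 9.85e-06) had the smallest adjusted p of the 75. Ryr2, the cardiac ryanodine receptor, fell in U-OEx LE by -2.58 (adjusted p = 0.0108) from low wild-type values of 5.18, 3.07 and 14.5. Itpr2 and Ryr2 were not listed in the E-OEX tables.

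The plasma membrane calcium pumps split. Atp2b2, which exports calcium, had 7994, 5568 and 9119 in wild-type LE and 290.4, 811 and 424 in U-OEx LE, and its log2 fold change was -4.02 (SE 0.39, adjusted p = 8.79e-05). Atp2b4, another exporter, rose in the same comparison by 1.68 (SE 0.40, adjusted p = 0.00819), from 45.6, 142 and 69.3 to 219.6, 270.2 and 267. In E-OEX, Atp2b4 measured 206, 207 and 424 in LE and 1514, 1493 and 1734 in GE and passed in neither epithelium, at 1.59 (adjusted p = 0.104) and 0.67 (adjusted p = 0.0626). Beside the falls in U-OEx LE stands the luminal marker sum, which was also lower there than in any wild-type LE library. The sum of 2 ciliated-cell markers was at 6.43, 40 and 2.88 in U-OEx LE and between 231 and 396 in wild-type LE. Of these 2 markers Dnah5 was lower in U-OEx LE, while Foxj1 overlapped between the groups. The part of the luminal and ciliated-cell markers in the falls was not tested.

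**Figure D2:**
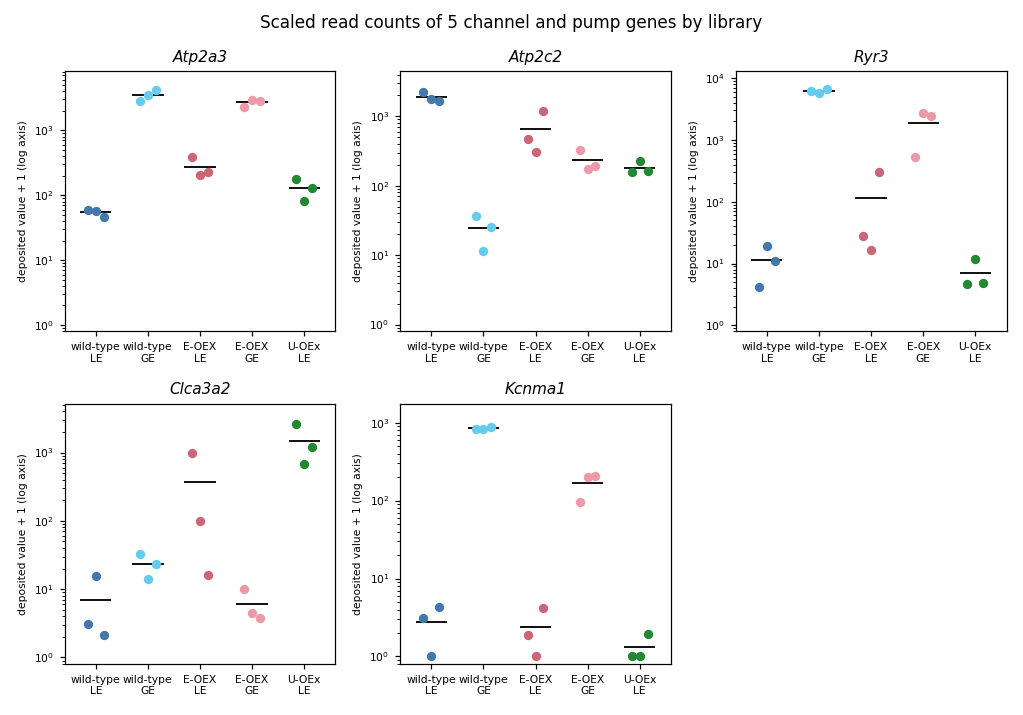
Scaled read counts (value + 1, log axis) of 5 genes, 1 point per library and a black bar at the mean of the 3 libraries of each group. Atp2a3 is higher and Atp2c2 lower in every mutant LE library than in wild-type LE, while Ryr3 and Kcnma1 are lower in every E-OEX GE library than in wild-type GE.

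The Clca genes encode regulators of calcium-activated chloride conductance and lie together on chromosome 3. Clca3a2 (ENSMUSG00000028262, chr3:144796559-144819494) had 2.07, 14.3 and 1.12 in wild-type LE libraries, 994, 99.9 and 15.1 in E-OEX LE and 2613, 679.8 and 1201 in U-OEx LE. Every mutant LE library exceeded every wild-type one, by a margin that in E-OEX replicate 3 was under 1 unit. In GE it went the other way, from 32.1, 13.3 and 22.5 in wild type to 9.01, 3.45 and 2.81 in E-OEX. The log2 fold changes were 8.11 (SE 0.79, adjusted p = 8.75e-05) in U-OEx LE and -2.42 (SE 0.58, adjusted p = 0.0147) in E-OEX GE; in E-OEX LE the estimate of 4.52 (SE 1.33, adjusted p = 0.0594) missed the threshold, though it passed with edgeR and DESeq2 on the reads and without E-OEX LE replicate 3. Its interaction was -6.67 (SE 1.67, adjusted p = 0.0228). Leaving out 1 library ended the interaction call for 5 of the 12 libraries. E-OEX LE replicate 1, where Clca3a2 was highest, was also the E-OEX LE library with the highest glandular marker sum, although the gland marker Spink1 was 0 in every E-OEX LE library. The part of gland-like RNA was not tested.

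Clca3a1 (chr3:144729677-144760977), the neighbouring paralogue, was listed in the wild-type and U-OEx tables. Its values were 7.25, 44 and 12.3 in wild-type LE, 383, 375 and 601 in wild-type GE and 1136, 659 and 1489.6 in U-OEx LE, and it rose in U-OEx LE by 5.91 (SE 0.61, adjusted p = 0.000109). The transcripts of both genes share 864 words of 50 bases, 22.2% of those of Clca3a1 and 21.8% of those of Clca3a2, so part of their reads could be split between them. Clca1, which shares no 50-base word with another Clca gene, was abundant in E-OEX LE (8034, 4425 and 10498) and lower in U-OEx LE (2084, 1719.5 and 1527), a log2 difference of -2.16 (SE 0.36, adjusted p = 0.00979). This call held for 4 of the 6 libraries when each was left out. Clca1 was not listed in the wild-type tables, so neither mutant group could be set against wild type. Clca2 was low everywhere and had no read in the 3 U-OEx LE libraries, against 20.7, 5.12 and 13.4 in wild-type LE, which makes it at least 4.95-fold lower at a floor of 3 reads in each library.

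Upstream sequences were searched for the binding core of RBPJ, the DNA-binding partner of the activated Notch receptor (TGGGAA), and for the E-box CACGTG and the related CACGCG, to which Hes and Hey repressors bind. Both strands were searched in the 250 bases before each transcription start of the RefSeq table (GRCm38.p6), which held 110 starts of 76 of these genes. TGGGAA occurred before 23.6% of those starts and before 21.6% of all 32851 starts, CACGTG before 4.55% and 6.02%, and CACGCG before 8.18% and 7.62%, so the shares were near those of all genes. The window of Clca3a1 is shown because that gene rose in U-OEx LE, Atp2a3 because its direction differed between the epithelia, Kcnh2 because it rose in GE of E-OEX and, less firmly, in LE of U-OEx, Kcnn4 because it rose in U-OEx LE and Trpv6 because it became one of the most abundant. Motifs are in capitals and everything else in lower case, 5′ to 3′ on the strand of the gene. Kcnh2 carries TGGGAA and Kcnn4 carries CACGTG, and the other three windows hold none of these letters on either strand. The window of Kcnh2 belongs to a start inside the gene. The windows are at chr3:144760978-144761227, minus strand (Clca3a1), chr11:72960919-72961168, plus strand (Atp2a3), chr5:24329592-24329841, minus strand (Kcnh2), chr7:24370013-24370262, plus strand (Kcnn4) and chr6:41636406-41636655, minus strand (Trpv6).
Clca3a1: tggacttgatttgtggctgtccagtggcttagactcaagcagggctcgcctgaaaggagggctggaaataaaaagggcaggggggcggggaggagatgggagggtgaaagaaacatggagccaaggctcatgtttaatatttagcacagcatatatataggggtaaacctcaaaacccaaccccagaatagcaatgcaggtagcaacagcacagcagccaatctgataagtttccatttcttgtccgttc
Atp2a3: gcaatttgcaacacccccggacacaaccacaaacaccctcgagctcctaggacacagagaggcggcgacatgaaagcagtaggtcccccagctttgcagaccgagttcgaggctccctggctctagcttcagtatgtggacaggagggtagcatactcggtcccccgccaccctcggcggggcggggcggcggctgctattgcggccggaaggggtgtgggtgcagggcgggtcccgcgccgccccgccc
Kcnh2: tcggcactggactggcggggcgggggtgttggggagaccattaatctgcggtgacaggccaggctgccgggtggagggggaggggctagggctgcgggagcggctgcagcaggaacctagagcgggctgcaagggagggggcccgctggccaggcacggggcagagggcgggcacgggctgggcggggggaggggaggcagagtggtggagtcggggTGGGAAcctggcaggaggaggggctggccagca
Kcnn4: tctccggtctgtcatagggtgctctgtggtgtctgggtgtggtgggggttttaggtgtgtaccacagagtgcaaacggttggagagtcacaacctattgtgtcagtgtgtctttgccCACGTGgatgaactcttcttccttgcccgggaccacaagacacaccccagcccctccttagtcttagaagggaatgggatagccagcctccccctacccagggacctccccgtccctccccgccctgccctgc
Trpv6: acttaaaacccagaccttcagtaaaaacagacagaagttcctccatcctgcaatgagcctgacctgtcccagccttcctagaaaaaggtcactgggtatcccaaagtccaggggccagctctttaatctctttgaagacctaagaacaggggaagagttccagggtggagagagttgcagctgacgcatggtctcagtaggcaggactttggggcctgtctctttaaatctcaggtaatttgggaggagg

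Of the Clic and Clcn genes, Clic6 encodes a chloride intracellular channel protein. It was at 11.4, 13.3 and 12.3 in wild-type LE, 622, 679.6 and 771 in wild-type GE and 1345, 1885 and 772 in U-OEx LE, and its log2 fold change was 6.54 (SE 0.38, adjusted p = 1.01e-05) in LE. The gland marker Foxa2 lay between 440.8 and 677 in U-OEx LE and between 2227 and 2584 in wild-type GE. The gland markers Spink1, Ttr and Prss29 were 0 in every U-OEx LE library. Clic6 in U-OEx LE was at or above its wild-type GE values, and the part of gland-like RNA in it was not tested. Clcn5 fell in U-OEx LE from 3461, 1201 and 2168 to 540.3, 624 and 408, at -2.03 (SE 0.42, adjusted p = 0.00402). Clcn2 (0.16 (adjusted p = 0.709)), Clic3 (-0.86 (adjusted p = 0.184)) and Clic4 (0.84 (adjusted p = 0.0642)) did not pass. The anoctamins form calcium-activated chloride channels and lipid scramblases. Ano2 went from 865, 115 and 193 in wild-type LE to 2.76, 0 and 0 in U-OEx LE (-7.46 (adjusted p = 0.000248)), and Ano5 fell in E-OEX GE from 295, 208 and 311 to 105, 48.3 and 39.3 (-2.63 (adjusted p = 0.0023)). Ano1, a calcium-activated chloride channel, and Ano9 were among the most abundant genes shared by U-OEx and E-OEX LE; at 1.60 (adjusted p = 0.0732) and -0.15 (adjusted p = 0.848) neither passed between them.

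Of the Trp channel genes, 5 of 7 tested rose in U-OEx LE and 1, Trpc6, fell, where 29.1 percent of all genes were higher and 27.8 percent lower. The call of Trpc6 ended for 5 of the 6 libraries when each was left out. Trpv6, the apical calcium entry channel of epithelia, was at 419.5, 1415 and 531 in wild-type LE and 10066, 6511 and 7613 in U-OEx LE. Its lowest U-OEx value was above its highest wild-type one by several-fold, and the log2 fold change was 3.52 (SE 0.42, adjusted p = 0.000219). Trpm6 reached 2641, 1468 and 2154 in U-OEx LE against 917, 539 and 253 in E-OEX LE (1.89 (adjusted p = 0.0314)). Against wild-type LE, Trpm6 overlapped (its replicate 2 was at 1814), and the call of 1.89 (adjusted p = 0.0396) did not hold with edgeR or DESeq2 (adjusted p = 0.109 and 0.104).

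Trpm2, a cation channel gated by ADP-ribose, was at 0, 5.12 and 2.24 in wild-type LE and 396, 106 and 649 in U-OEx LE, and its log2 fold change was 6.83 (SE 0.86, adjusted p = 0.000317). Trpv2 and Trpv3, both known as heat-activated cation channels, rose by 4.37 (adjusted p = 0.00042) and 4.48 (adjusted p = 0.000755). Trpv2 also stood above E-OEX LE, at 3.18 (adjusted p = 0.0437), a call that ended on the deposited scale (adjusted p = 0.0532). Trpm2 is also known from leukocytes. In the 3 U-OEx LE libraries the leukocyte marker Ptprc was at 1569.6, 441 and 2705 and Csf1r at 790.3, 359.9 and 1165, lowest in replicate 2 and highest in replicate 3, as were Trpm2 and Trpv2 (106, 56.9 and 182). The macrophage marker Adgre1 was at 36.3, 6.14 and 21.2 in wild-type LE and 99.2, 46.2 and 109 in U-OEx LE. The immune marker Cd68 lay closer between the groups, at 219, 278 and 221 in wild-type LE and 334, 293 and 462 in U-OEx LE. Of the 7 immune markers, 2 were listed in the wild-type tables, and the part of leukocytes in these rises was not tested.

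**Figure D3:**
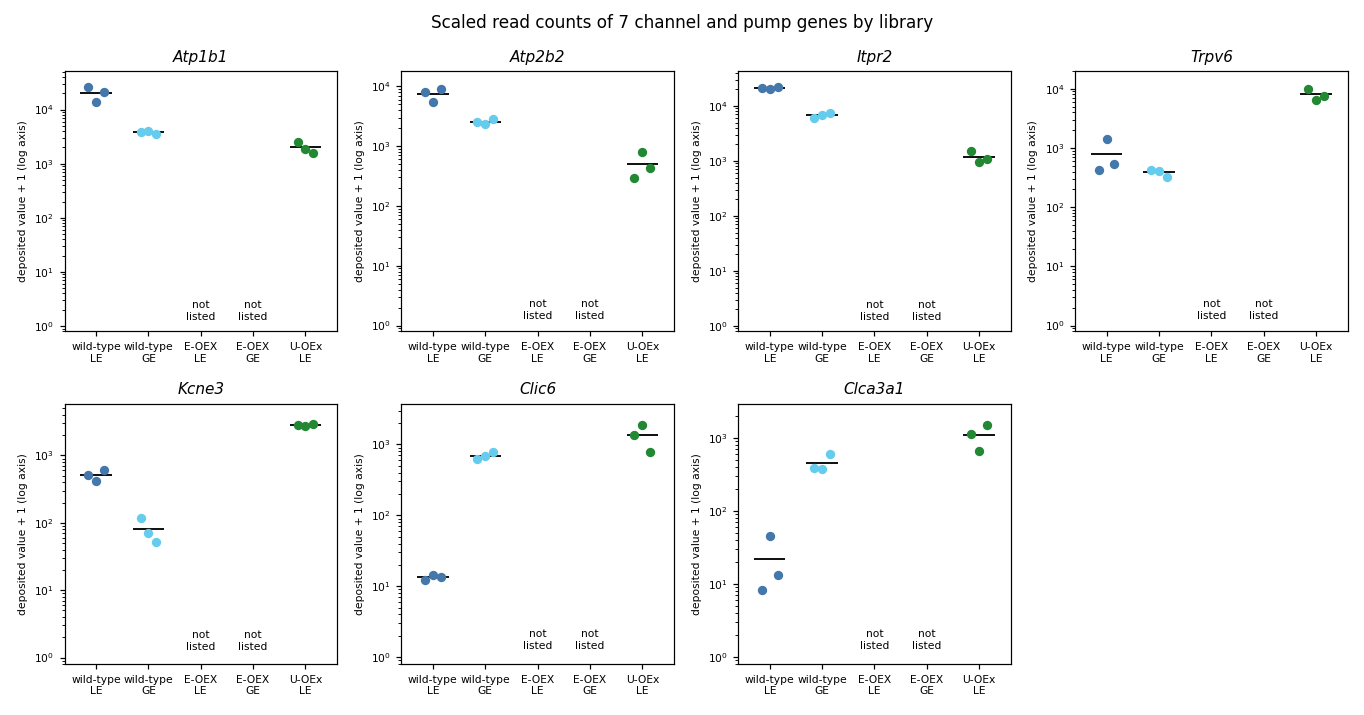
Scaled read counts (value + 1, log axis) of 7 genes, 1 point per library and a black bar at the mean of the 3 libraries; groups in which a gene was outside the listed genes are marked. In U-OEx LE, Trpv6, Kcne3, Clic6 and Clca3a1 lie above all wild-type LE libraries, and Atp1b1, Atp2b2 and Itpr2 below them.

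Of the voltage-gated calcium channel genes, 1 of 9 rose and 2 fell in U-OEx LE, 1 of 7 fell in E-OEX LE and 0 of 8 passed in E-OEX GE (limma). Over all genes tested, 29.1 percent rose and 27.8 percent fell in U-OEx LE. The shares were 5.12 and 5.54 percent in E-OEX LE, and 23.5 percent passed in E-OEX GE. Cacnb4, a beta subunit, was at 330.4, 156 and 391 in wild-type LE libraries, 28.3, 13.6 and 122 in E-OEX LE and 4.59, 24 and 19.2 in U-OEx LE, and fell in both, by -3.03 (SE 0.79, adjusted p = 0.0388) and -4.30 (SE 0.65, adjusted p = 0.000794). All 6 mutant LE libraries were below the wild-type ones. The fall in E-OEX LE did not pass on the deposited scale (adjusted p = 0.0553) or with edgeR (adjusted p = 0.0767), and it ended for 5 of the 6 libraries when each was left out, as the E-OEX LE call of Atp2a3 did for 4. Cacna2d2, an auxiliary subunit, fell in U-OEx LE (-3.34 (adjusted p = 0.0107)), and Cacna1e, an R-type pore, rose from near 0 to 19.3, 15.1 and 25.9 there (3.67 (adjusted p = 0.00261)). Cacnb3 had the highest scaled counts of them in LE and did not pass in any comparison: its values were 1385, 510.03 and 386 in wild-type LE libraries, 938, 1324 and 671 in E-OEX LE and 969, 1222 and 1301 in U-OEx LE. The L-type pore Cacna1c (192, 263 and 199.9 in wild-type GE and 525, 381 and 531 in E-OEX GE) and the T-type pore Cacna1g did not pass in E-OEX GE, at 0.67 (adjusted p = 0.0948) and 0.01 (adjusted p = 0.981).

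Of the 10 genes that changed in E-OEX GE, 5 encode potassium channels or their subunits, which made up 22 of the 51 genes tested (43.1%). In 1 fit over all 5 groups the calls of Kcnh2, Kcne4, Kcnb2, Ano5, Ryr3, Clca3a2 and Atp2a3 ended. When each of the 6 libraries was left out, those of Atp2a3 and Kcnip1 ended for 4, that of Clca3a2 for 3 and that of Kcnb2 for 1. Kcnma1 (ENSMUSG00000063142, chr14:23289431-24014491), the large-conductance channel opened by calcium and voltage, fell from 828, 836 and 879 in wild-type GE to 96.1, 200.04 and 208 in E-OEX GE, by a fitted log2 change of -2.87 (SE 0.29, adjusted p = 0.000159). It was the smallest adjusted p among the 51 genes, and its LE values stayed at or below 3.35 in every library. Kcnh2 (chr5:24319589-24351604), a delayed rectifier known from the heart, rose from 36, 50.2 and 37.2 to 322, 269 and 216 in GE (2.22 (SE 0.32, adjusted p = 0.00106)). Kcne4, an accessory subunit that inhibits some voltage-gated channels, rose from 67.2, 87.2 and 88.2 to 279, 299 and 279 (1.36 (SE 0.26, adjusted p = 0.00527)), and Kcnip1, a calcium-binding subunit of Kv4 channels, from 1.95, 4.74 and 6.92 to 39.1, 16.1 and 29.98 (2.03 (SE 0.55, adjusted p = 0.0257)). Kcnb2, a delayed rectifier pore, fell from 96.3, 78.7 and 74.4 to 21, 44.8 and 35.6 (-1.78 (SE 0.36, adjusted p = 0.00601)). The groups did not overlap for any of these 5 genes. Beside these rises stands the smooth muscle marker sum, which was higher in every E-OEX GE library than in wild-type GE. Beside the falls in E-OEX GE, those of Ryr3, Ano5, Clca3a2 and Atp2a3 included, stands the glandular marker sum. It lay between 4392 and 5412 in E-OEX GE and between 21022 and 28652 in wild-type GE. Within it Spink1, Lif, Cxcl15 and Ttr were lower in every E-OEX GE library, while Foxa2 overlapped (1941 to 2593 against 2227 to 2584). The part of either sum was not tested.

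**Figure D4:**
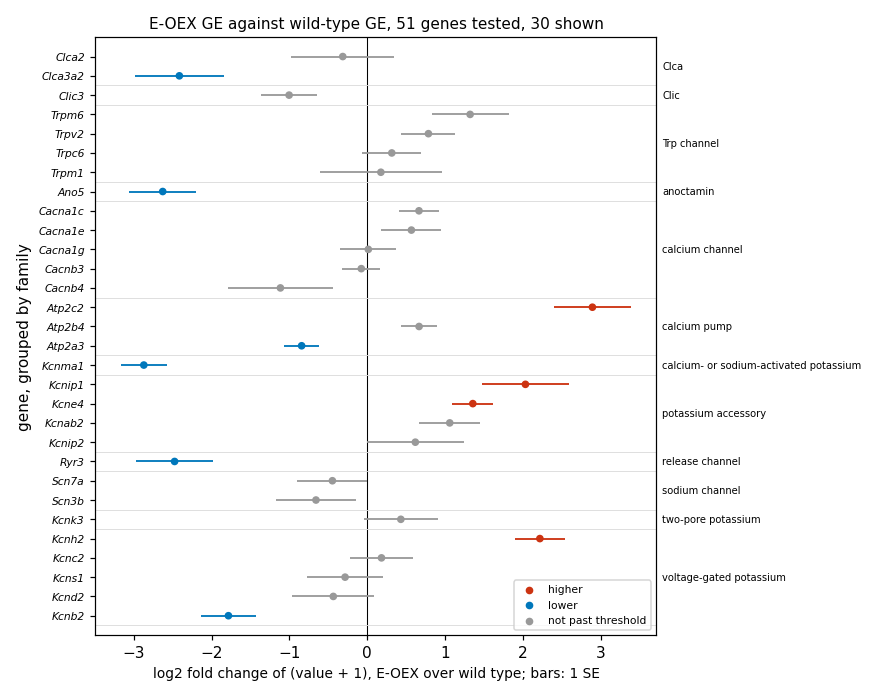
Log2 fold changes of E-OEX GE over wild-type GE for 30 of the 51 tested genes, those named in the text, grouped by family, with bars of 1 SE; red and blue points passed an adjusted p of 0.05 as higher or lower. Kcnma1, Ano5, Ryr3 and Clca3a2 lie lowest, and Atp2c2, Kcnh2 and Kcnip1 highest.

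Of the potassium channel genes, 15 of 32 tested passed in U-OEx LE (46.9%, against 56.9 percent of all genes). Kcne3 (chr7:100176502-100184869), a subunit that keeps the channel Kcnq1 open in secretory epithelia, was at 508, 412 and 608 in wild-type LE and 2806, 2779.7 and 2957 in U-OEx LE, and its log2 fold change was 2.48 (SE 0.23, adjusted p = 7.85e-05). Kcnq1 itself overlapped between the groups (923, 219 and 338 and 1409, 2193 and 858), and its call of 1.73 (adjusted p = 0.034) did not hold with edgeR (adjusted p = 0.0606). Kcnn4, a calcium-activated channel of epithelia and leukocytes, rose from 119, 24.6 and 15.6 to 802, 858 and 1056 (4.58 (SE 0.71, adjusted p = 0.000874)). Kcnj15, an inward rectifier, had no read in any wild-type LE library and was at 68.9, 77.3 and 33.6 in U-OEx LE, which makes it higher by at least 18.5-fold at the floor of 3 reads in each library, and Kcnip1, likewise at 0 in wild-type LE, was higher by at least 3.14-fold. Kcnab2, a beta subunit of voltage-gated channels, rose by 2.86 (adjusted p = 0.00348) and Kcnh2 by 2.32 (adjusted p = 0.0334) with overlapping groups (20.7, 3.07 and 5.59 and 34.9, 83.5 and 24), a call that did not hold with edgeR (adjusted p = 0.0517) or under quantile normalization (adjusted p = 0.0608). The low gene Kcns1 (1.91 (adjusted p = 0.0237)) also passed, but not with edgeR or DESeq2. The U-OEx LE calls of Atp2a3, Kcnh2, Kcnip2, Kcnq1, Kcns1, Trpc6 and Trpm6 ended for 3 to 5 of the 6 libraries when each was left out. For 6 genes described here that passed in U-OEx LE against wild-type LE, 1 group held only 1 to 3 reads in all, and ratios of summed reads with exact 95% intervals, which cover counting error only, show how loosely their size was set. Against wild type, U-OEx LE was lower for Ryr2 by 24.4-fold (interval 3.93 to 1011), for Trpc6, a diacylglycerol-gated cation channel, by 20.4-fold (interval 5.23 to 175), for Cacna2d2 by 25.6-fold (interval 8.39 to 127) and for Ano2 by 435-fold (interval 148 to 2111). It was higher for Cacna1e by 18.6-fold (interval 6.09 to 92.6) and for Kcns1 by 11.2-fold (interval 1.68 to 475).

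Of the tandem-pore channel genes, 2 of 4 tested fell in U-OEx LE, and of the voltage-gated potassium channel genes 4 of 13 rose and 3 fell. Over all 5949 genes, 29.1 percent rose and 27.8 percent fell in this comparison with wild-type LE. Kcnk1, a background potassium channel, went from 3288, 4629 and 4655 in wild-type LE to 944, 668 and 708 (-2.46 (SE 0.23, adjusted p = 7.71e-05)), and Kcnk4, a mechanosensitive relative, from 252, 116 and 183 to 16.5, 9.78 and 14.4 (-3.64 (SE 0.46, adjusted p = 0.000326)). Kcnb2 dropped from 256, 215 and 353 to 1.84, 8 and 6.72 (-5.56 (SE 0.53, adjusted p = 8.37e-05)), and was also below E-OEX LE, where it was at 80.3, 70.8 and 258 (-4.44 (adjusted p = 0.00739)). Kcnc4, a fast voltage-gated channel, fell from 509.6, 249.9 and 1044 to 1.84, 13.3 and 23.1 (-5.71 (adjusted p = 0.000689)), and Kcnh3 from 243, 81.9 and 71.5 to 4.59, 6.22 and 14.4 (-3.76 (adjusted p = 0.00168)). Kcnip2, a Kv4 subunit, fell against both wild-type LE (-2.39 (adjusted p = 0.0284)) and E-OEX LE (-3.19 (adjusted p = 0.027)), at U-OEx values of 0, 3.55 and 4.80; with a pseudocount of 0.1 neither call held (adjusted p = 0.0794 and 0.0806), and the first did not with edgeR (adjusted p = 0.0524). Between U-OEx and E-OEX LE, Kcne1, another Kcnq1 subunit, was lower in U-OEx (49.3, 79.9 and 75.6 against 11.9, 18.7 and 7.68, -2.51 (adjusted p = 0.02)), and the inward rectifier Kcnj2 was higher (118, 19.1 and 5.40 against 353, 151 and 376, 3.34 (adjusted p = 0.0415)). Cacna1e was higher as well (3.37 (adjusted p = 0.0351)), and Clca2 had no read in U-OEx LE. Leaving out U-OEx LE replicate 1 ended all 10 calls of this comparison, and leaving out E-OEX LE replicate 1 raised them to 15.

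The beta subunit gene of the sodium pump, Atp1b1, fell in U-OEx LE. It went from 26058, 13725 and 21326 in wild-type LE to 2565, 1887 and 1552 in U-OEx LE (-3.35 (SE 0.33, adjusted p = 8.96e-05)), and the groups did not overlap.

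**Figure D5:**
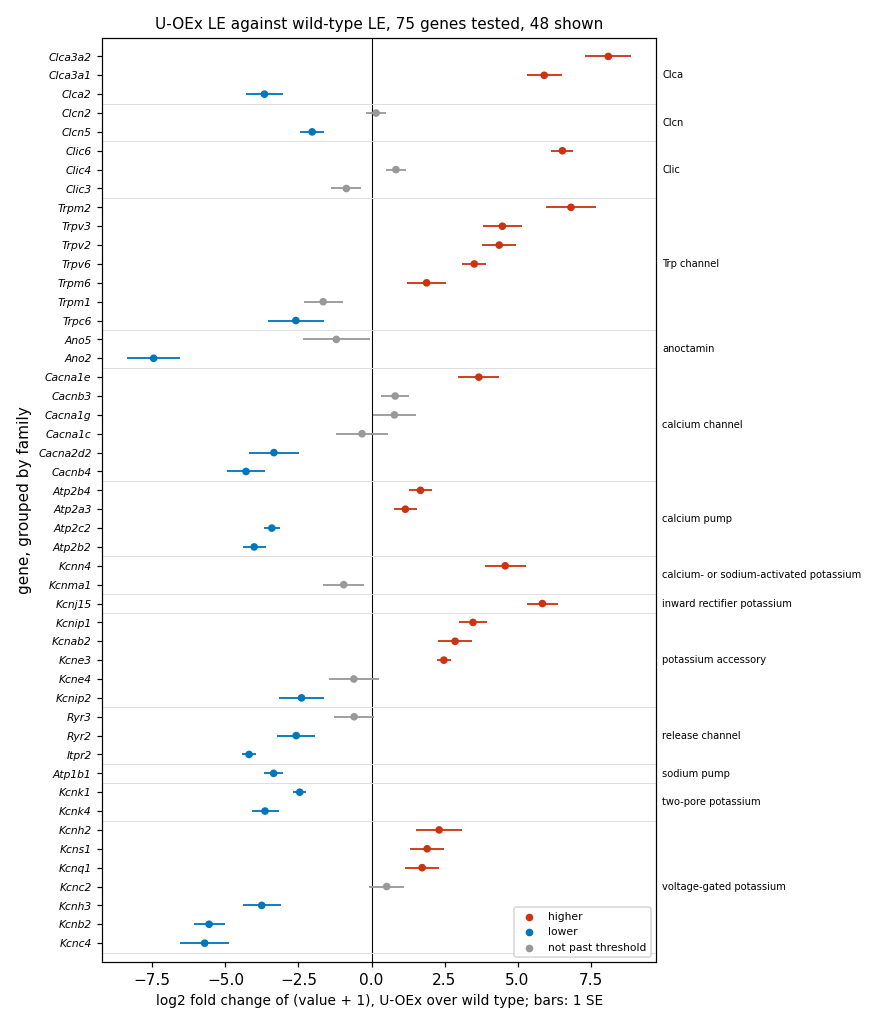
Log2 fold changes of U-OEx LE over wild-type LE for 48 of the 75 tested genes, those named in the text, grouped by family, with bars of 1 SE; red and blue points passed an adjusted p of 0.05 as higher or lower. Clca3a2, Trpm2, Clic6 and Clca3a1 lie highest and Ano2, Kcnc4 and Kcnb2 lowest.

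Partners outside the naming rule were read from a list of 81 genes for calcium binding and store refilling, exchangers, cotransporters and pump regulators. In U-OEx LE 8 of 34 tested rose and 7 fell, in E-OEX LE 1 of 19 rose and 1 fell, in E-OEX GE 6 of 20 rose and 1 fell, and between U-OEx and E-OEX LE 1 of 24 was higher and 3 lower. These are 44.1%, 10.5%, 35% and 16.7% of the partners tested, against 56.9, 10.7, 23.5 and 15 percent of all genes. Calb1, a cytosolic calcium buffer of calcium-transporting epithelia, was at 44989.9, 17811 and 35781 in wild-type LE libraries, 4169, 1346 and 9677 in E-OEX LE and 254, 252 and 209 in U-OEx LE. It fell in both, by -3.19 (SE 0.70, adjusted p = 0.0202) and -7.03 (SE 0.37, adjusted p = 8.11e-06), opposite in sign to Trpv6 in U-OEx LE. S100g, the smaller calbindin, was lower in U-OEx than in E-OEX LE (-2.68 (adjusted p = 0.0338)). Of the store-refilling genes, the sensor Stim1 fell in U-OEx LE from 2187, 1368 and 1666 to 308, 339 and 214 (-2.62 (SE 0.31, adjusted p = 0.000213)), and the channel Orai2 rose from 9.32, 8.19 and 4.47 to 1086, 716 and 1016 (6.83 (SE 0.40, adjusted p = 1.05e-05)).

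The sodium-calcium-potassium exchanger Slc24a4 was at 1138, 501 and 837 in wild-type LE and 0, 1.78 and 2.88 in U-OEx LE (-8.50 (adjusted p = 2.23e-05)), while its relative Slc24a3 rose there (2.76 (adjusted p = 0.00309)) and in E-OEX GE (1.50 (adjusted p = 0.0321)). The ATP-gated channel P2rx2 rose from near 0 in both mutant LE groups, by 4.10 (adjusted p = 0.0133) in E-OEX and 3.39 (adjusted p = 0.0012) in U-OEx, and in E-OEX GE by 1.78 (adjusted p = 0.0168). Fxyd4, a regulator of the sodium pump, was at 24614, 14193 and 21618 in wild-type LE and 1778, 864 and 1691 in U-OEx LE (-3.86 (adjusted p = 7.87e-05)), but rose in E-OEX GE (2.21 (adjusted p = 0.00535)). Fxyd4 (4.97 (adjusted p = 0.0144)) and Jph2, a junction protein of muscle (3.37 (adjusted p = 0.0314)), were the 2 of 20 partners whose genotype effect differed between GE and LE (10%, against 10.7 percent of all genes). The Jph2 call ended with edgeR (adjusted p = 0.0854) and for 8 of the 12 libraries when each was left out. Leaving out 1 library ended the E-OEX GE call of Slc24a3 for 4 of 6 libraries, and the E-OEX LE call of Calb1 and the S100g call for 3 of 6 each.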

How the data were processed

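Per the labels, total RNA was purified with an RNeasy kit and libraries were made with NEBNext Ultra. The submitters' processing notes name GRCm38 and mm10; aligner, counter, strand use and scaling method are not given in the sources used here. The authors' deposited values, handled as a signal, are counts of reads scaled by a single divisor for each library: dividing by the value of 1 read gave whole numbers within 0.01 for 100% of values. Wild-type and E-OEX tables list only genes whose LE and GE means differ, so LE and GE were not tested against each other.

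The main test was limma 3.58.1 (R 4.3.3, trend) on log2(value + 1) for genes with a mean of at least 1, with Benjamini-Hochberg adjustment over all genes of a comparison and a threshold of 0.05; fold changes are on that scale, which understates low genes. Genotype comparisons used recovered reads of shared genes rescaled with TMM (edgeR 4.0.16), and the interaction used deposited values. Values given by library are on the deposited scale. Alternatives were other pseudocounts, filters, scalings and fits, edgeR, DESeq2 1.42.0, a replicate block, and leaving out each library. Scripts were tested on simulated data. Floors of 3 reads cover counting error only. Coordinates are from GENCODE M21. Python 3.11.15 with pandas 2.3.3 and matplotlib 3.10.9 made the tables and figures.

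The genes and the lists were chosen with earlier results of these data known. Named were Atp2a3, Clca3a2, up to 30 genes past the threshold in each comparison, 5 at each end of the GE to LE ratio and the 5 most abundant that did not pass; some of these genes and a promoter sequence are not reported here. Clcn5, Kcnq1, Kcns1 and the partners were named after their values were seen. The 3 mesothelial markers listed everywhere ranged from 109.8 to 3274 in wild-type LE, highest in replicate 2.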

Additional observations from a re-analysis of the deposited data

Results flagged for a closer look

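The effect of E-OEX differed between GE and LE for 5 genes by the interaction test, given as the log2 effect in GE minus that in LE. Among them were Atp2c2 (5.11), Atp2a3 (-2.67), Clca3a2 (-6.67) and Ryr3 (-4.44). Atp2c2 and Atp2a3 passed with each single library left out. The interaction test covered only genes listed with a GE to LE difference in both genotypes, and its p-values do not allow for that selection. No group has 4 or more libraries, so outlying libraries were not tested for.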

How the results depend on the processing

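Precision is limited by 3 libraries per group, by selected gene lists, and by low reads: 24 of 88 genes in wild-type LE, 20 of 73 in E-OEX LE and 19 of 104 in U-OEx LE had 3 reads or fewer in every library. No channel, pump or partner gene that passed changed direction in its comparison under any alternative run; genes that did not pass were not rerun, except Atp2a3 and Clca3a2, which kept theirs. The number of channel and pump genes past the threshold moved by over 1.5 times in these cases. In E-OEX LE, 3 became 1 with a pseudocount of 0.1 or on the deposited scale, 5 with quantile normalization, 8 in 1 fit over all 5 groups and 6 with DESeq2. In E-OEX GE, 10 became 20 on the deposited scale and 3 in the fit over all 5 groups. In U-OEx LE against wild-type LE, 40 became 19 in that fit, which tested 46 genes. Between U-OEx and E-OEX LE, 10 became 5 with a pseudocount of 0.1. The interaction's 5 became 8 with a pseudocount of 10 or DESeq2. Except for the scale and the smaller gene list, the cause was not tested.

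Leaving out 1 library gave 0 to 4 calls in E-OEX LE, with 0 without wild-type LE replicate 2 or 3 or E-OEX LE replicate 1 or 2 and 1 without wild-type LE replicate 1. It gave 6 to 10 in E-OEX GE, with 6 without wild-type GE replicate 1, and 32 to 41 in U-OEx LE against wild-type LE. Between U-OEx and E-OEX LE it gave 0 to 15: 0, 3 and 1 without U-OEx LE replicate 1, 2 and 3, and 3 and 2 without E-OEX LE replicate 2 and 3. The interaction gave 2 to 8, with 8 without wild-type LE replicate 1, 3 without wild-type LE replicate 3, and 2 without wild-type GE replicate 1 or 3 or E-OEX GE replicate 2 or 3. The GE to LE directions, 62 and 58 genes higher in GE, were the same after TMM. With the replicate number as a block the counts were 4, 12, 40, 10 and 5 in the order above; same-numbered libraries did not deviate together in every pair (lowest correlation per pair of groups -0.33 to 0.04), so the numbers were not taken as pairing, although wild-type and E-OEX GE libraries each correlated best with their own number.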
